A study of Bos taurus with 9 samples.

Results

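The expression of 9 interferon-stimulated genes (ISGs) was examined in the liver of Holstein dairy cows. The genes were *IRF7*, *ISG15*, *MX1*, *MX2*, *RSAD2*, *IFIT2*, *IFIT3*, *IFI6* and *IFI44*, taken by their symbols from the table of read counts. All 9 were found among the 28786 genes listed, each had counts in every cow, and all 9 passed the filter on low counts that kept 15073 genes.

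ISGs are switched on when a cell senses interferon. Type I interferons (alpha, beta, omega and, in ruminants, tau) and type III interferons (lambda) bind their receptors and activate the kinases JAK1 and TYK2, which phosphorylate STAT proteins such as STAT2. With IRF9 these form the complex ISGF3, which binds the promoters of ISGs, whereas interferon gamma acts on a partly different set of genes. In cattle, ISGs respond to viral infection and also to interferon tau, the signal of the early embryo, and in the liver they can be expressed by hepatocytes and by resident macrophages (Kupffer cells).

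The lactating cows were picked at random from a larger experiment and adapted to a thermoneutral climate before they entered 3 environmental conditions. The TN group remained in thermoneutrality and the HS group was exposed to heat stress, with a higher temperature by day than by night. The PF group was kept in thermoneutrality and pair-fed, so that its feed was held to the intake of the heat-stressed cows. There were 3 cows in a group, and 1 biopsy and 1 poly-A library came from every cow. Before allocation, the study balanced the cows for lactation, milk yield and days of pregnancy. Days in milk are given only as group averages, which differ between the groups. Age, pregnancy and health of the single cows are not given in the sources used here.

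The libraries held between 16874444 and 22557047 counts on genes, so that a count of 0 allows up to 3 counts or 0.111 to 0.202 CPM (counts scaled to the library size), for counting error only. All 13 hepatocyte markers examined, among them *ALB* and *TTR*, were counted in each cow. TN replicate 1 stood apart, with a summed level of these markers of 24160 CPM against 80990 to 170400 CPM in the other 8 cows, and the group comparisons are also given without this cow. CPM values were normalized for library composition over the 9 libraries (TMM). Because the tissue was sequenced in bulk, fewer cells of a type and less RNA per cell cannot be told apart. Levels were compared between cows and not between genes, because transcript lengths were not used.

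*IRF7* encodes the transcription factor that amplifies the production of type I interferon. It had 20.1, 28.5 and 13.4 CPM in TN replicates 1, 2 and 3, 10.2, 18.5 and 19.9 CPM in the PF cows, and 11.7, 13.9 and 23.9 CPM in the HS cows, in the same order of replicates. TN replicate 2 was the highest cow and HS replicate 3 the second, and the 3 groups overlapped.

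*ISG15* encodes a ubiquitin-like protein that is attached to other proteins during the antiviral response. Its levels were 8.94, 61.2 and 9.47 CPM in the TN cows, 18.0, 18.9 and 20.2 CPM in the PF cows, and 11.6, 12.7 and 40.3 CPM in the HS cows. TN replicate 2 was 6.84-fold above TN replicate 1, the lowest cow, whereas the 3 PF cows lay within a 1.12-fold range. All PF cows lay between the high cow and the other cows of both the TN and the HS group, so that the groups overlapped.

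The MX genes encode dynamin-like GTPases that block the replication of RNA viruses. For *MX1* the TN cows had 19.0, 56.8 and 25.7 CPM, the PF cows 48.0, 18.4 and 19.6 CPM, and the HS cows 21.5, 15.1 and 31.0 CPM. *MX2* had 4.47, 9.32 and 1.13 CPM in TN, 3.79, 1.45 and 3.62 CPM in PF, and 6.46, 2.40 and 10.2 CPM in HS cows. *MX1* was highest in TN replicate 2 with PF replicate 1 close behind, *MX2* was highest in HS replicate 3 and then in TN replicate 2, and in both genes the groups overlapped. *MX2* had the fewest counts of the 9 genes, down to 19 in TN replicate 3. In ARS-UCD2.0 (RefSeq) it is the neighbour of *MX1*.

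*RSAD2* encodes viperin, a radical SAM enzyme that makes a chain-terminating nucleotide against viral polymerases. Its levels were 10.1, 16.4 and 6.08 CPM in TN, 15.6, 13.4 and 12.6 CPM in PF, and 14.2, 7.83 and 9.75 CPM in HS cows. It was the only gene of the 9 that was higher in another HS cow than in HS replicate 3, which held 0.885 times the mean of the other HS cows.

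The IFIT genes encode tetratricopeptide repeat proteins that take part in the block of viral translation. *IFIT2* had 5.45, 8.39 and 5.30 CPM in TN, 6.15, 5.08 and 5.14 CPM in PF, and 8.71, 7.25 and 11.4 CPM in HS cows. *IFIT3* had 2.01, 8.27 and 5.48 CPM in TN, 3.43, 7.04 and 4.79 CPM in PF, and 6.09, 6.43 and 8.61 CPM in HS cows. In *IFIT2* the lowest HS cow lay above the highest PF cow, while TN replicate 2 lay within the HS range, and the groups overlapped in *IFIT3*. Both genes overlap *LIPA* in ARS-UCD2.0, and without the strand setting of the counting their reads cannot be told apart from those of *LIPA*. *LIPA*, the gene for lysosomal acid lipase, had 35.6 CPM in TN replicate 1, 135.9 CPM in TN replicate 2 and 57.5 to 110.2 CPM in the other 7 cows.

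*IFI6*, whose mitochondrial protein limits apoptosis, had 27.3, 166 and 26.2 CPM in TN, 36.1, 119 and 44.5 CPM in PF, and 75.9, 34.2 and 159 CPM in HS cows. *IFI44*, a gene of the antiviral response that lies next to *IFI44L*, had 9.12, 31.1 and 10.8 CPM in TN, 13.7, 6.09 and 6.72 CPM in PF, and 10.6, 9.29 and 13.3 CPM in HS cows. In *IFI6*, 1 cow of each group was at least 2 times as high as the others of its group, namely TN replicate 2, PF replicate 2 and HS replicate 3. In *IFI44* TN replicate 2 stood clear of the other cows, and the groups overlapped in both genes.

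**Figure D1:**
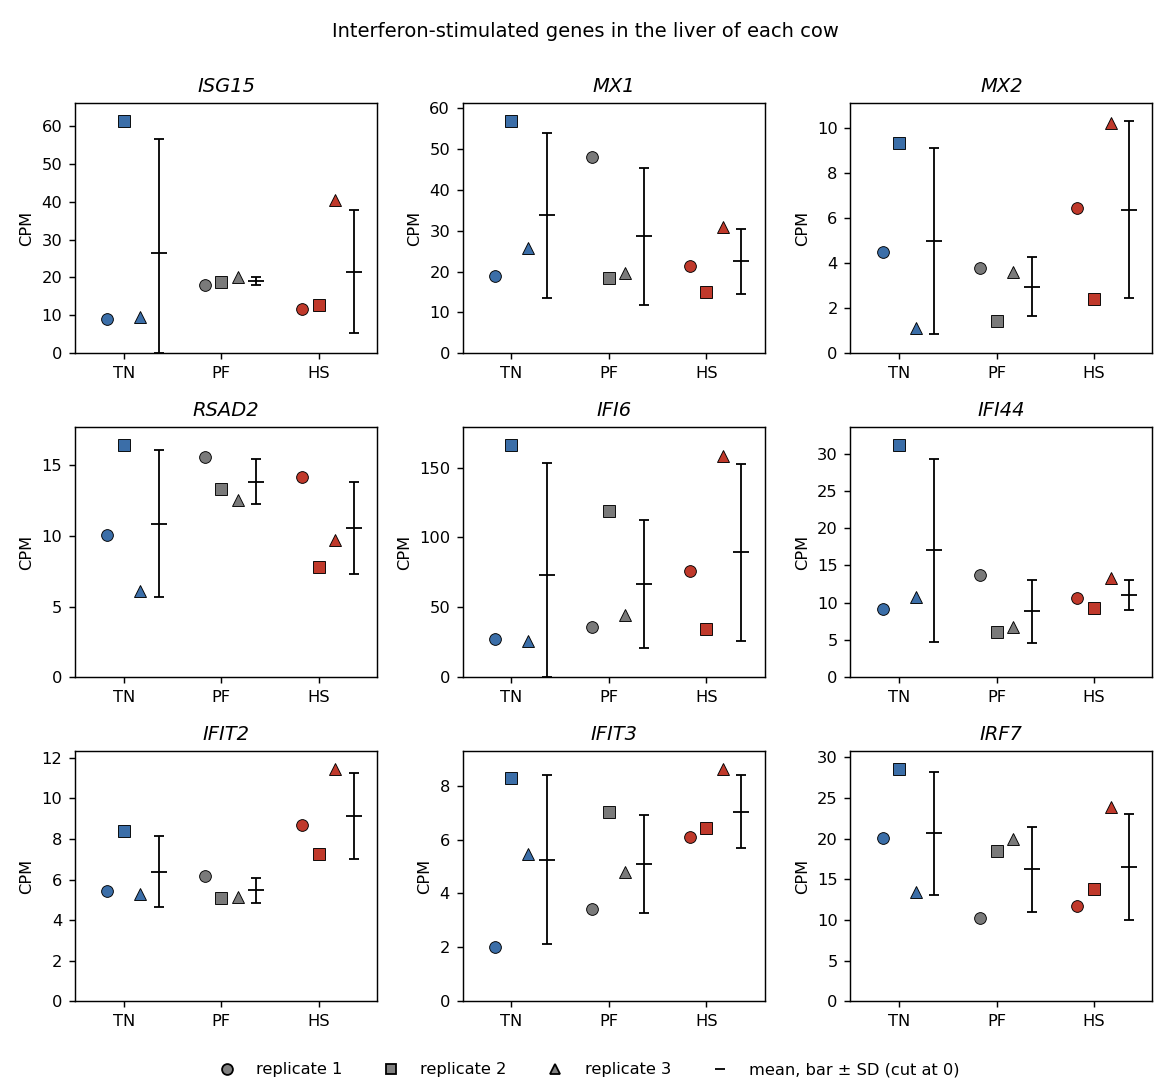
Each panel plots 1 gene, with its level in CPM on the vertical axis and the TN, PF and HS groups on the horizontal axis. Symbols are single cows (circle, square and triangle for replicates 1, 2 and 3), and the dash with its bar is the mean ± SD of 3 cows, cut at 0. TN replicate 2 (blue square) is the highest cow in 6 of the 9 panels and HS replicate 3 (red triangle) in the other 3.

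The first question was whether heat stress changed these genes against the unrestricted thermoneutral cows. The levels of no gene of the 9 differed between the HS and TN groups beyond the spread between cows. In edgeR, 0 of 9 were differentially expressed genes (DEGs, with a false discovery rate (FDR) under 0.1 over all genes tested and a fold change over 1.5), where 0.0892% of 14582 genes were. None of the 9 had an unadjusted p under 0.05, against 9.36% of all genes, and in 0 of 9 did the 2 groups lie apart without overlap, against 16.1%. DESeq2, which called 1.75% of genes, also called 0 of 9, and its unadjusted p was under 0.05 in 0 of them and in 7.91% of all genes.

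Against the TN group, 4 of the 9 ISGs had a higher and 5 a lower estimate in the HS group, where 49.3% of all genes were higher, with a median log2 fold change of -0.05, against -0.01 over all genes. *IFIT2* had the highest log2 fold change, 0.50 (SE 0.30, FDR 0.595, edgeR), with means of 9.13 ± 2.12 (HS) and 6.38 ± 1.74 CPM (TN; SD, n = 3). *IFI44* had the lowest, -0.63 (SE 0.43, FDR 0.634, edgeR), with means of 11.1 ± 2.05 (HS) and 17.0 ± 12.2 CPM (TN). For *ISG15* the log2 fold change was -0.31 (SE 0.74, edgeR) with a 95% confidence interval from -1.97 to 1.35, and the means were 21.5 ± 16.3 (HS) and 26.5 ± 30.0 CPM (TN). *IFI6* had 89.5 ± 63.3 and 73.1 ± 80.4 CPM in these groups and an interval from -1.37 to 1.94. Both intervals reach past a log2 fold change of 1 in either direction.

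The estimates turned on TN replicate 2. It was the highest TN cow in 9 of 9 genes, so leaving it out by itself raises the estimates of HS against TN. The values of that fit are a description and not a test. Without this cow 8 of the 9 ISGs were higher in the HS group, against 50.7% of all genes, with a median log2 fold change of 0.75, and *ISG15* (1.21), *IFI6* (1.73) and *IFIT2* (0.75) had an unadjusted p under 0.05, in a fit where 13% of all genes did. The lowest FDR of the 9 in that fit was 0.287 (*IFI6*, edgeR), so that 0 of 9 were DEGs there as well, where 0.258% of all genes were. Leaving out HS replicate 3, the highest HS cow in 8 of 9 genes, by itself lowers most estimates. Without this cow 3 genes were higher and 6 lower, with a median of -0.42. Without TN replicate 1, the cow with the low hepatocyte markers, 3 were higher and 6 lower, with *IFIT3* at 0.029, a median of -0.10 and 51.2% of all genes higher. In that fit *MX1* and *IFI44* had an unadjusted p under 0.05 (6.48% of all genes did), with lower levels in the HS group, and 0 of 9 were DEGs (0.0269%).

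The second question was whether heat stress differed from the reduced feed intake that comes with it. Between the HS and PF groups, 0 of 9 ISGs were DEGs with edgeR and 0 with DESeq2, where 0.0276% and 0.771% of all genes were. *IFIT2* had means of 9.13 ± 2.12 (HS) and 5.46 ± 0.60 CPM (PF; SD, n = 3), a log2 fold change of 0.74 (SE 0.29, edgeR) with an interval from 0.09 to 1.38. It was the only 1 of the 9 with an unadjusted p under 0.05 (FDR 0.847, edgeR), against 5.31% of all genes, and the only 1 whose groups did not overlap, against 10.5%. Its log2 fold change was between 0.55 and 0.88 when any 1 cow was left out. Its unadjusted p (edgeR) was not under 0.05 without PF replicate 2, PF replicate 3 or HS replicate 3. Nor was it with the replicate number as a block.

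*MX2* had the largest estimate in this comparison, 1.10 on the log2 scale (SE 0.54, FDR 0.948, edgeR), with means of 6.36 ± 3.91 (HS) and 2.95 ± 1.30 CPM (PF). With DESeq2, *MX2* and *IFIT2* had an unadjusted p under 0.05, as did 4.63% of all genes. In all, 7 of the 9 ISGs were higher in the HS group, against 50.9% of all genes, and *MX1* and *RSAD2* were lower, with a median log2 fold change of 0.32, against 0.01 over all genes. Without HS replicate 3 there were 4 higher and 5 lower, with 51.4% of all genes higher, and the median was -0.28. In that fit *ISG15* had an unadjusted p under 0.05 in the other direction (5.34% of all genes did), at -0.65 on the log2 scale, and 0 of 9 were DEGs (0.0463%). HS replicate 3 was the highest HS cow in 8 of 9 genes, *ISG15* among them, so this fit is a description and not a test.

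Markers of Kupffer cells and macrophages were set beside this comparison. Of 13 such markers, 0 were DEGs with edgeR (lowest FDR 0.586) or DESeq2. The estimate was higher in HS than in PF cows for 12, against 50.9% of all genes, with a median log2 fold change of 0.74, and 9 had an unadjusted p under 0.05, against 5.31%, among them *CD68*, *MARCO* and *CD163*. Against the TN group DESeq2 called *MARCO* and the neutrophil markers *S100A12* and *S100A9* higher and the red cell gene *HBB* lower in HS cows, and *CD14* higher in PF cows, while edgeR called none of the 5. The 13 Kupffer cell and macrophage markers summed to 2612 to 4342 CPM in HS, 1758 to 2616 CPM in PF and 1804 to 3927 CPM in TN cows. None of the 13 was at 0 in any cow. Neutrophil markers, of which 5 of 8 could be tested, summed to 45.1 to 132.9 CPM in HS, 12.7 to 60.3 CPM in PF and 20.2 to 40.2 CPM in TN cows, with *MMP8* at 0 in 8 cows. The part of these cells in the differences of the ISGs was not tested.

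The third question was whether pair-feeding alone changed these genes, with the same TN cows as the reference. Between the PF and TN groups 0 of 9 ISGs were DEGs with edgeR, where 0.0% of 14580 genes were, and 0 of 9 with DESeq2, which called 0.555%. The unadjusted p was under 0.05 in 0 of 9 with either tool, against 6.88% of all genes with edgeR and 6.41% with DESeq2, and in 0 of 9 did the groups lie apart, against 13.2%. *RSAD2* was the only gene with a higher estimate in PF cows (log2 fold change 0.35, SE 0.35, FDR 0.796, edgeR), and 8 of the 9 were lower, with a median of -0.24, where 48.8% of all genes were higher. The lowest estimate was that of *IFI44*, -0.95 (SE 0.48, FDR 0.709, edgeR), with means of 8.82 ± 4.20 (PF) and 17.0 ± 12.2 CPM (TN).

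This direction also turned on TN replicate 2, the highest TN cow in 9 of 9 genes. Leaving it out by itself raises the estimates, which makes that fit a description and not a test. Without this cow 7 of the 9 ISGs were higher in PF than in TN cows, against 49.7% of all genes, with a median log2 fold change of 0.36, and *ISG15* (1.05), *IFI6* (1.32) and *RSAD2* (0.77) had an unadjusted p under 0.05, in a fit where 9.96% of all genes did. In that fit 0 of 9 were DEGs, against 0.0927% of all genes. Without TN replicate 1, the median was -0.52 and 8 of the 9 were lower in the PF group, where 50.7% of all genes were higher. In that fit *IFI44* was lower in PF cows with an unadjusted p under 0.05 (edgeR), as 4.35% of all genes had. The same held for *IFI44* and *MX2* without TN replicate 3 (5.25% of all genes) and for *IFI44* without PF replicate 1 (4.75%). In these fits 0 of 9 were DEGs, as were 0 genes in all.

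When the groups were tested jointly in edgeR, 0 of 9 ISGs were called, where 0.0464% of 15073 genes were. The lowest FDR was that of *IFIT2* (0.668, edgeR), 0 of 9 had an unadjusted p under 0.05, against 7.86% of all genes, and DESeq2 called 0 of 9 and 1.89% of all genes.

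**Figure D2:**
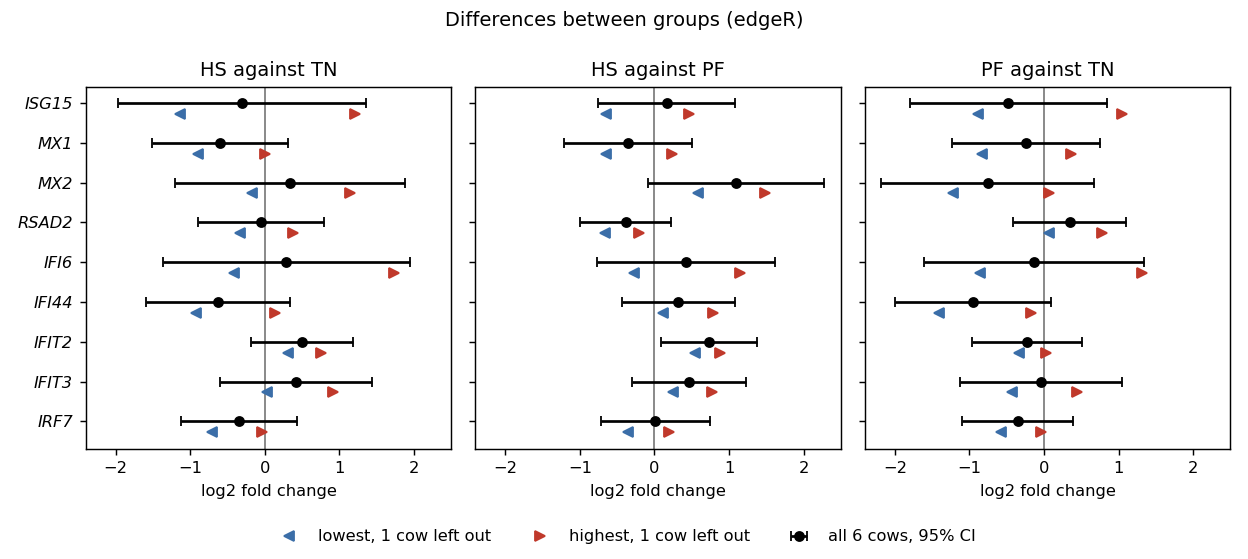
The log2 fold change of each gene is plotted on the horizontal axis for HS against TN, HS against PF and PF against TN, with a black point and its 95% confidence interval from edgeR. Blue and red triangles mark the lowest and the highest estimate when 1 cow was left out. Of the 27 intervals, that of *IFIT2* between HS and PF cows is the only 1 that does not include 0.

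Cows of the same group differed more in 8 of these 9 genes than in most other genes. The standard deviation of log2(CPM + 0.5) between cows within groups was 1.2 for *IFI6*, 1.05 for *ISG15* and 1.01 for *MX2*, at percentiles 98.98, 98.35 and 97.98 of 15073 genes. It was 0.70 for *MX1*, 0.66 for *IFI44*, 0.62 for *IFIT3*, 0.52 for *IRF7* and 0.47 for *RSAD2*. *IFIT2* was the steadiest with 0.28, at percentile 24.2. The median over the 9 ISGs was 0.66 and that of all genes 0.39. Without TN replicate 2 the median of the 9 was 0.52, against 0.38 for all genes, and the values were 0.62 for *ISG15*, 0.42 for *IFI44* and 0.35 for *RSAD2* (percentile 43.4). *RSAD2* also fell under the median gene without TN replicate 3 (percentile 40.0), and *IFIT3* was at 0.38 (percentile 55.8) without TN replicate 1.

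A pair of cows held most of the high values. These cows were singled out from the levels of these same genes, so the shares over all genes beside them are a description and not a test. TN replicate 2 was the highest of the 9 cows in 6 of 9 ISGs, against 6.42% of 15073 genes, and among the 3 highest in all 9. HS replicate 3 was the highest in the other 3 (*MX2*, *IFIT2* and *IFIT3*), against 12.8% of genes, and among the 3 highest in 8. In 5 of the 9 ISGs these cows were the 2 highest, against 2.14% of genes. Within the groups, TN replicate 2 was the highest TN cow in 9 of 9, against 34.8% of genes, and HS replicate 3 the highest HS cow in 8 of 9, against 33.7%.

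TN replicate 2 exceeded the mean of the other TN cows 6.64-fold in *ISG15*, 6.21-fold in *IFI6*, 3.33-fold in *MX2* and 3.13-fold in *IFI44*, and the smallest ratio was 1.56 in *IFIT2*. HS replicate 3 exceeded the mean of the other HS cows 3.32-fold in *ISG15*, 2.88-fold in *IFI6* and 2.31-fold in *MX2*. The PF group had no such cow, since PF replicate 1 was the highest PF cow in 5 genes and PF replicates 2 and 3 in 2 genes each. On the log2 scale TN replicate 2 lay on average 1.01 and HS replicate 3 0.67 above the mean of the 9 cows, while the other 7 cows lay between -0.55 (TN replicate 3) and 0.04 (HS replicate 1). Thus the high and the low extreme of the 9 cows both came from the TN group.

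**Figure D3:**
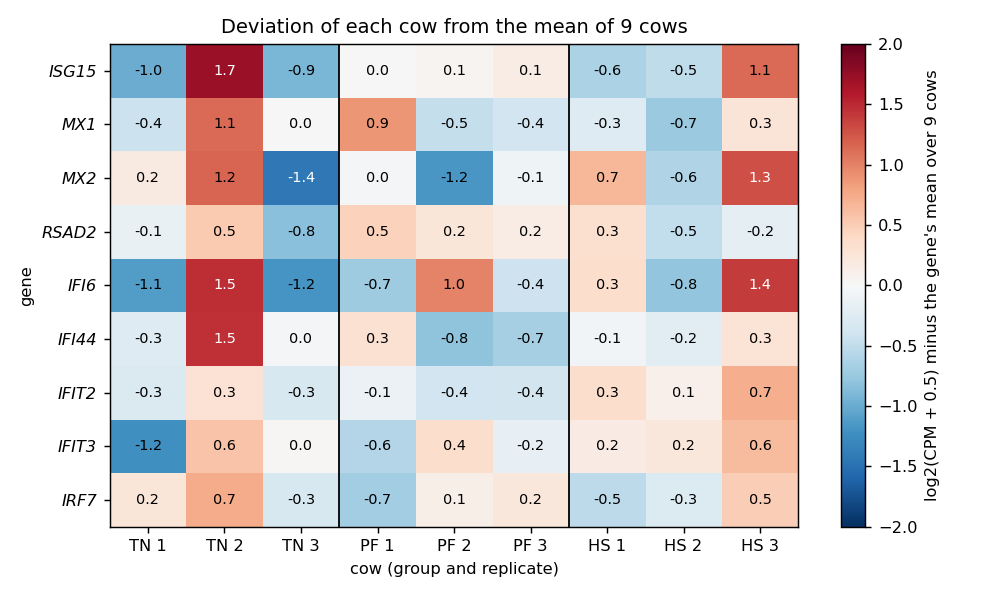
Rows are the 9 genes and columns the 9 cows, with black lines between the TN, PF and HS groups. The color and the number give log2(CPM + 0.5) of a cow minus the mean of the gene over the 9 cows (red above, blue below). TN replicate 2 is above the mean in all 9 genes and HS replicate 3 in 8.

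The co-variation between animals was first measured against *ISG15*. Over the 9 cows, all 8 other ISGs had a positive Pearson correlation of log2(CPM + 0.5) with *ISG15*, against 50.8% of 15072 genes, with r from 0.50 for *RSAD2* to 0.82 for *IFI6*. For *IFI6*, r was 0.824 (exact two-sided permutation test, p = 0.00481) and Spearman's rho was 0.850 (exact permutation test, p = 0.00607). Next came *IRF7* with r = 0.679 (exact permutation test, p = 0.0437) and rho = 0.533 (exact permutation test, p = 0.148), and then *MX1* with r = 0.661 (exact permutation test, p = 0.0502) and rho = 0.433 (exact permutation test, p = 0.250). *IFI6* and *IRF7* were the 2 of 8 with an unadjusted p under 0.05, against 4.76% of genes.

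With adjustment over the 15072 genes correlated with *ISG15*, 0 of 8 ISGs passed an FDR of 0.1, as did 0 genes in all, and the FDR of each of the 8 was 0.746 for r. For rho the FDRs ran from 0.579 to 0.832, and 1 of the 8, *IFI6*, had an unadjusted p under 0.05, against 7.41% of genes. The remaining genes had r = 0.639 and rho = 0.300 (*IFI44*), r = 0.629 and rho = 0.417 (*MX2*), r = 0.616 and rho = 0.667 (*IFIT3*), r = 0.548 and rho = 0.217 (*IFIT2*), and r = 0.497 and rho = 0.433 (*RSAD2*), with exact permutation p from 0.0589 to 0.581.

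TN replicate 2 and HS replicate 3 were also the cows farthest from the median of *ISG15*. Without them, over 7 cows, r with *ISG15* was 0.64 for *RSAD2* and 0.52 for *IFI6*, 0.31 for *IFIT3*, 0.20 for *MX1* and 0.07 for *IRF7*, and it was negative for *MX2* (-0.04), *IFIT2* (-0.23) and *IFI44* (-0.39). The smallest of these exact permutation p-values was 0.122, for *RSAD2*. Leaving out the cows at the extreme of *ISG15* narrows its range, which by itself lowers r, and 48.5% of all genes had a positive r over the same 7 cows. The relation of *IRF7*, *MX1*, *MX2*, *IFI44* and *IFIT2* to *ISG15* rested on these cows to the extent that it was not seen in the other 7.

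The 36 pairs among the 9 ISGs gave the same picture as a description. Over 9 cows all 36 had a positive r, with a median of 0.50 and a range from 0.03 (*RSAD2* and *IFIT3*) to 0.86 (*MX1* and *IFI44*). Among all 113590128 pairs of genes past the filter, the median was 0.00, the quartiles were -0.32 and 0.32, and 13.9% of pairs reached the median of the ISGs. The pairs share the same 9 libraries and are not independent of each other.

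The pairs were also correlated when the 3 groups were pooled after their means were subtracted, which does not show co-variation within each group. TN replicate 2 and HS replicate 3 stayed in for this, and in the PF group the highest cow differed between the genes. After the mean of each group was subtracted, all 36 pairs were still positive and the median r was 0.66, a value that 8.35% of all gene pairs reached when treated alike. Without this subtraction, where the median over 9 cows was 0.50, it was 0.30 with 28 positive pairs when TN replicate 2 was left out, and 0.44 with 34 when HS replicate 3 was. Without TN replicate 1 it was 0.51 with 34 positive pairs. Without both TN replicate 2 and HS replicate 3 it was 0.04 with 19 positive pairs, and r ran from -0.85 (*IFI44* and *IRF7*) to 0.70 (*MX1* and *IFI44*). *MX1* and *IFI44* kept a high r over the other 7 cows, in which PF replicate 1 was the highest in both genes.

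**Figure D4:**
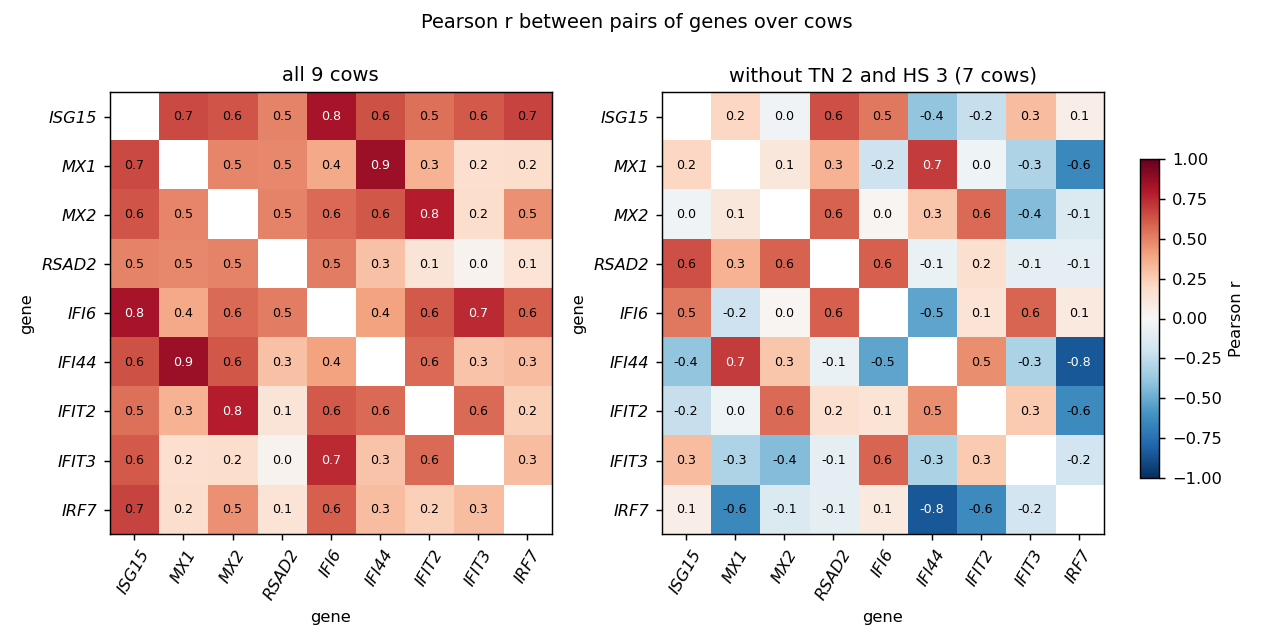
Each square gives Pearson r of log2(CPM + 0.5) between the genes of its row and column, over all 9 cows on the left and over the 7 cows without TN replicate 2 and HS replicate 3 on the right (red positive, blue negative). All 36 pairs are positive on the left and 19 of 36 on the right.

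The genes whose pattern was most like that of the 9 ISGs, by the median of their r with the 9 over the 9 cows, were *NFKBIE* (0.73), *LOC507055* (0.72), *C1QA* (0.72), *CD53* (0.71), *PARS2* (0.70), *PARP14* (0.70), *RTP4* (0.70), *LOC112446404* (0.69), *COMMD2* (0.69) and *MCM2* (0.69). *PARP14* and *RTP4* are themselves ISGs, *NFKBIE* encodes an inhibitor of NF-kappa B, *C1QA* a complement subunit made by macrophages and *CD53* a tetraspanin of leukocytes. *C1QA* had 822.8 CPM in TN replicate 2, 744.1 CPM in HS replicate 3 and 351.2 to 557 CPM in the other cows. Its r with *ISG15* was 0.786 over 9 cows (exact permutation test, p = 0.0152, rho = 0.483, FDR 0.746) and -0.03 without these 2 cows.

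Other ISGs were then examined from a list of 54, of which 49 were in the table and passed the filter. With *ISG15*, 42 of the 49 had a positive r, the median was 0.52, and 16 had an unadjusted exact permutation p under 0.05, against 4.76% of genes, and 0 passed an FDR of 0.1. Without TN replicate 2 and HS replicate 3 the median was 0.31 and 32 of the 49 were positive. *OAS1Y*, a copy of the gene for oligoadenylate synthetase that senses double-stranded RNA, had the highest r, 0.871 (rho 0.900), and r = 0.819 without the 2 cows. Reads of *OAS1Y* may be shared with its close copies *OAS1X* and *OAS1Z*. *IFITM2*, which encodes a membrane protein against viral entry, had the lowest r, -0.18. TN replicate 2 was the highest cow in 18 of the 49, against 6.42% of genes, and HS replicate 3 in 13, against 12.8%.

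Between the groups 0 of the 49 were DEGs with edgeR in any comparison, where at most 0.0892% of all genes were. The medians were 0.02 (HS against TN), 0.17 (HS against PF) and -0.09 (PF against TN) on the log2 scale. *UBE2L6*, the gene for the conjugating enzyme that attaches ISG15 to proteins, had the highest estimate between HS and TN cows, 1.17 on the log2 scale (SE 0.27, FDR 0.276, edgeR). It had 39.1, 53.0 and 42.8 CPM in TN, 40.9, 107.2 and 55.2 CPM in PF, and 71.3, 110.8 and 124 CPM in HS cows, so that its lowest HS value lay above its highest TN value. Between these groups 3 of the 49 lay higher and 1 lower in HS cows without overlap, against 16.1% of all genes without overlap. *UBE2L6* was the only 1 of the 49 called by DESeq2 (FDR 0.010), which called 1.75% of all genes between HS and TN cows. Its r with *ISG15* was 0.28. The lowest estimate was that of *OAS1X*, -1.58 on the log2 scale (SE 0.77, FDR 0.536, edgeR) against the TN group and -1.30 (SE 0.70, FDR 0.974) against the PF group, and the first was -0.92 without TN replicate 2 and -2.31 without HS replicate 3.

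The other extremes of the list were *ISG20*, which encodes an exonuclease, at 0.92 on the log2 scale (SE 0.58, FDR 1.00, edgeR) between HS and PF cows, and *OAS2* with 1.06 (SE 1.10, FDR 0.804) and *OAS1Z* with -1.06 (SE 0.78, FDR 0.741) between PF and TN cows. With 1 cow left out, *ISG20* ran from 0.51 (without PF replicate 1) to 1.63 (without PF replicate 2), *OAS2* from 0.33 (without PF replicate 3) to 2.72 (without TN replicate 2), and *OAS1Z* was -0.56 without TN replicate 1. Of the 49, 1 gene had an unadjusted p under 0.05 in each comparison, where the shares of all genes were 9.36% (HS and TN), 5.31% (HS and PF) and 6.88% (PF and TN). These were *UBE2L6* (HS and TN), *DHX58*, a regulator of RNA sensing (HS and PF), and *ZBP1*, a sensor of Z-form nucleic acids (PF and TN).

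The ligands of the pathway were nearly absent from these libraries. Of 18 genes for type I and III interferons, 14 were in the table, and 10 of these, *IFNB1* and *IFNL3* among them, had 0 counts in every cow. *IFN-TAU* had 9 counts in HS replicate 1, *IFNAH* 2 counts in TN replicate 3, and *IFNAA* and *IFNT3* 1 count in 1 cow each. The sum was 0 CPM in TN replicate 2 and 0.067 CPM in HS replicate 3, the cows with the highest ISGs. These levels are at or under the 3 counts that a count of 0 allows, other than that of *IFN-TAU*, and the poly-A libraries of whole liver give no level for cells outside the biopsy. *IFNG*, the gene of interferon gamma, had at most 12 counts.

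All 6 receptor genes could be tested, and 0 were DEGs in any comparison with edgeR or DESeq2, where at most 0.0892% and 1.75% of all genes were. In edgeR 0 had an unadjusted p under 0.05, against 5.31% to 9.36% of all genes. Their log2 fold changes between HS and TN cows ran from -0.57 for *IFNLR1* (SE 0.35, FDR 0.600, edgeR), the receptor chain of interferon lambda, to 0.54 for *IFNGR2* (SE 0.36, FDR 0.627). *IFNAR1* had 8.94 to 15.3 CPM and *IFNAR2* 23.3 to 49.3 CPM over the 9 cows, with r = 0.13 with *ISG15* for each. *IFNGR1* had the highest estimate between HS and PF cows (0.22) and the lowest between PF and TN cows (-0.05), and *IL10RB* lay between -0.12 and 0.15 in the 3 comparisons. TN replicate 2 and HS replicate 3 were the highest cow in 0 of the 6 receptor genes, against 6.42% and 12.8% of all genes. With 6 genes, such shares leave few to be seen.

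Of the 6 genes for JAK-STAT and ISGF3 components, 0 were DEGs in any comparison with either tool, where at most 0.0892% (edgeR) and 1.75% (DESeq2) of all genes were. With edgeR 0 had an unadjusted p under 0.05, against 5.31% to 9.36% of all genes. The most different was *STAT2*, at -0.66 on the log2 scale (SE 0.32, FDR 0.532, edgeR) in HS against TN and -0.56 (SE 0.29, FDR 0.960) in HS against PF cows. The kinase genes *JAK1*, *JAK2* and *TYK2* lay between -0.33 (*TYK2*, PF against TN) and 0.32 (*TYK2*, HS against PF). *IRF9*, the DNA-binding subunit of ISGF3, is itself induced by interferon. It had 34.6, 57.5 and 30.9 CPM in TN, 41.4, 54.9 and 35.4 CPM in PF, and 41.2, 33.2 and 53.5 CPM in HS cows. TN replicate 2 was its highest cow, and the groups overlapped.

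*IRF9* had r = 0.813 with *ISG15* (exact permutation test, p = 0.00649) and rho = 0.767, and r = 0.58 without the 2 cows. *STAT2* had the lowest r of the 6, -0.50 (exact permutation test, p = 0.154, rho = -0.667), and 168.7 CPM in TN replicate 1, 159.6 CPM in PF replicate 3 and 63.3 to 107.3 CPM in the other cows. Neither passed the adjustment over all genes (FDR 0.746 for each r).

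Among 10 negative regulators, 0 were DEGs in any comparison with edgeR or DESeq2, where at most 0.0892% and 1.75% of all genes were. Between HS and TN cows 1 of the 10 had an unadjusted p under 0.05, against 9.36% of all genes. This was *PTPN2* (-0.48 on the log2 scale, SE 0.21, FDR 0.522, edgeR). It also had the lowest r with *ISG15*, -0.25. *SOCS3*, a feedback inhibitor of cytokine receptors, had the highest estimate in that comparison, 0.73 (SE 0.35, FDR 0.531, edgeR). *USP18*, which removes ISG15 from proteins and damps the receptor, had the highest r with *ISG15*, 0.791 (rho 0.717), and 0.63 without the 2 cows. *SOCS1*, an inhibitor of JAK kinases, had the largest log2 fold change of this list, 1.41 between HS and PF cows (SE 0.69, FDR 0.948, edgeR), from 3 to 49 counts a cow. Of 23 genes for nucleic acid sensors and their adaptors, 18 could be tested and 0 were DEGs with either tool, beside the same shares of all genes. Their median log2 fold changes were -0.01 (HS and TN), 0.06 (HS and PF) and -0.11 (PF and TN). In HS against TN cows the extremes were *TLR7* (0.80), a sensor of single-stranded RNA, and *IKBKE* (-0.49), a kinase upstream of IRF3 and IRF7. *TLR7* was also the highest against PF cows (0.90) and *TMEM173*, which encodes STING, the lowest (-0.66), while *TMEM173* (0.46) and *ZBP1* (-0.97) were the extremes between PF and TN cows. With *ISG15*, r ran from -0.54 for the adaptor gene *MAVS* to 0.83 for *DDX58*. The sensor genes *DDX58* and *DHX58*, which the list of other ISGs also holds, had 41.4 and 25.2 CPM in HS replicate 3, their highest cow.

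Genes best known to respond to interferon gamma differed between the high cows. Of 24 such genes 22 were in the table and 21 passed the filter over 9 libraries. TN replicate 2 was the highest cow in 16 of the 21, against 6.42% of genes, and HS replicate 3 in 0, against 12.8%. The chemokine genes *CXCL9* and *CXCL10*, which attract T cells, had 61.1 and 67.4 CPM in TN replicate 2, 5.04 and 5.85 CPM in HS replicate 3 and at most 19.7 and 18.3 CPM in any other cow. On average over the 21 genes, TN replicate 2 lay 0.89 above and HS replicate 3 0.21 below the mean of the 9 cows on the log2 scale, where over the 9 ISGs both lay above it.

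With edgeR 0 of the 20 genes of this list that could be tested were DEGs in any comparison, and 2 (HS and TN), 0 (HS and PF) and 3 (PF and TN) had an unadjusted p under 0.05, against 9.36%, 5.31% and 6.88% of all genes. DESeq2 called 1 gene of this list between HS and TN cows, where it called 1.75% of all genes. This was *IDO1*, which encodes a tryptophan-degrading enzyme. The medians against the TN group were -0.38 in HS and -0.47 in PF cows. The lowest estimates were those of *GBP5*, a guanylate-binding GTPase, at -1.85 on the log2 scale (SE 0.78, FDR 0.517, edgeR) in HS against TN, and of *CXCL10* with -1.65 (SE 0.72, FDR 0.708) in PF against TN cows. Without TN replicate 2 these estimates were -0.31 for *GBP5* and 0.14 for *CXCL10*. The highest estimates were those of *TAPBP* (0.25, HS against TN), *ICAM1* (0.36, HS against PF) and *BOLA-NC1* (0.17, PF against TN), and r with *ISG15* ran from -0.51 (*BOLA-NC1*) to 0.70 (*B2M*, the light chain of MHC class I).

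Markers of other cells were set beside the ISGs cow by cow. The summed level of the 9 ISGs was 385.9 CPM in TN replicate 2, 307.2 CPM in HS replicate 3 and 103.5 to 208 CPM in the other cows. The 13 Kupffer cell and macrophage markers summed to 3927 and 4342 CPM in these cows, to 3550 CPM in HS replicate 1 and to 1758 to 2616 CPM in the other 6, and 12 of the 13 had a positive r with *ISG15* (median 0.40), which was 1 of 13 without the 2 cows (median -0.28). T and NK cell markers were highest in TN replicate 2, at 118.9 CPM against 69.9 to 87.3 CPM, with 81.7 CPM in HS replicate 3. Neutrophil markers were highest in HS replicate 3, at 132.9 CPM, with 28.8 CPM in TN replicate 2 and 12.7 to 72.9 CPM in the other cows.

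The 9 dendritic cell markers, which include those of the plasmacytoid cells that make type I interferon, summed to 43.8 to 60.1 CPM. Single markers varied more, with *LILRA4* at 1.89 (HS against PF) and -1.46 (PF against TN) and *CD1E* at -1.47 (HS against TN) on the log2 scale, and 0 of the 9 were DEGs with edgeR or DESeq2. Markers of B and plasma cells were 77.8 CPM in TN replicate 2 and 86.6 CPM in HS replicate 3, within the range of 48.2 to 144.1 CPM of the others. Those of sinusoidal endothelium (1014 and 845.9 CPM) also lay within the range of the other cows, 811.4 to 1194 CPM. So did red cell and platelet markers (5.49 and 5.11 CPM, against 4.58 to 27.4 CPM in the others). Stellate cell markers were highest in TN replicate 2 (473.6 CPM) and lowest in HS replicate 3 (197.2 CPM), and cholangiocyte markers were lowest in these cows (28.2 and 19.0 CPM, against 30.9 to 100.9 CPM). Hepatocyte markers were 106100 and 170400 CPM in these cows. Of the 13 hepatocyte markers, 12 had a positive r with *ISG15* (median 0.53), against 50.8% of genes. Without the 2 cows all 13 were positive (median 0.60), against 48.5% of genes. The part of any of these cells in the levels of the 9 ISGs was not tested.

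**Figure D5:**
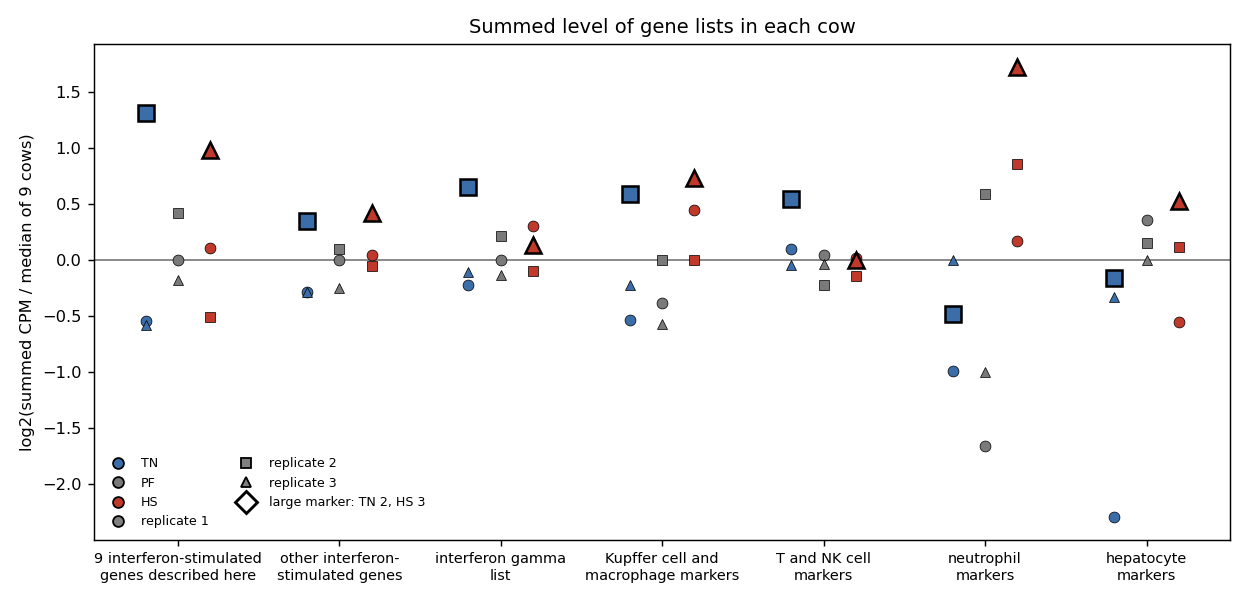
For each list of genes, the vertical axis gives log2 of the summed CPM of a cow over the median of the 9 cows, with blue, grey and red for TN, PF and HS and circle, square and triangle for replicates 1, 2 and 3. TN replicate 2 and HS replicate 3, drawn large, lie at 1.31 and 0.99 for the 9 ISGs. They also lead the macrophage markers, but HS replicate 3 lies at 0.14 for the interferon gamma list, where TN replicate 2 lies at 0.65.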

How the data were processed

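Poly-A RNA from 9 liver biopsies (3 TN, 3 PF and 3 HS cows) was sequenced in paired-end mode. The deposited values are the authors' raw read counts per gene, without normalization, and 0 columns were left out. Per the labels and the methods of the study, reads were trimmed with fastp 0.23.2, aligned to ARS-UCD1.2 with STAR 2.7.9a (at most 3 mismatches) and counted with featureCounts 2.0.3. The annotation release, the strand setting and the treatment of reads that match several genes are not given in the sources used here. The RefSeq table of ARS-UCD2.0 matched all 9 symbols and served only to name neighbours. No sequence tables were used.

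For every comparison the 6 libraries concerned were analysed in edgeR 4.0.16 (R 4.3.3): TMM, filterByExpr, quasi-likelihood F test (two-sided), Benjamini-Hochberg adjustment over all genes tested. SEs were derived from the F statistic, and confidence intervals from its degrees of freedom. The criteria for DEGs were those of the study (FDR 0.1, fold change 1.5). Correlations used log2(CPM + 0.5) of all genes past the filter, with exact two-sided permutation p-values over all orders of the cows (numpy 2.4.6), adjusted over 15072 genes. The edgeR and DESeq2 tests of HS against TN cows were checked beforehand on simulated counts, and the correlation test on simulated normal values. P-values rest on the spread between the cows tested, which were 6 in each main comparison of groups and 9 in the joint test and the correlations. The permutations moved cows between groups, so the correlation p-values do not take the groups into account.

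The alternatives were DESeq2 1.42.0 (the tool of the study), RLE size factors, the 13 mitochondrial protein-coding genes left out, no filter, at least 10 counts in every sample, 1 fit of 9 libraries, a replicate block, an FDR of 0.05, an offset of 2, subtraction of group means, and each cow left out. The 9 genes and all gene lists were chosen with earlier results of these data known. All 9 were named. A gene of another list was named if it was a DEG, had the largest or smallest log2 fold change or r with *ISG15* of its list, or belonged to the ligands, receptors or JAK-STAT genes (1 of which is not reported here), and the 10 genes most like the 9 by median r were named. The genes *UBE2L6*, *DHX58*, *ZBP1*, *PTPN2*, *IDO1* and *CXCL9*, *CD68*, *CD163*, *MMP8* and *LIPA* were also named after their values were seen, and of the cell type marker lists only counts and sums are otherwise given, apart from the DESeq2 calls and 2 dendritic cell markers, without every extreme that the rule would name.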

Additional observations from a re-analysis of the deposited data

How the results depend on the processing

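None of the alternatives, leaving out 1 cow included, made any of the 9 ISGs a DEG in any of the 3 comparisons or in the test of 3 groups, and none gave an FDR under 0.1 for their correlation with *ISG15*. With 3 cows a group, the 95% interval of a log2 fold change reached a median of 0.76 to 1.05 to either side in the 3 comparisons.

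The number of DEGs over all genes moved more. Between HS and TN cows it was 13, and 0 at an FDR under 0.05, 270 with DESeq2, 124 without the filter, 4 with 9 libraries in 1 fit, 33 with the replicate block, and 0 (without HS replicate 2) to 39 (without TN replicate 2) with 1 cow left out. Between HS and PF cows it was 4, and 122 with DESeq2, 8 with RLE size factors, 8 without mitochondrial genes, 98 without the filter, and 5 (without HS replicate 2) to 10 (without PF replicate 3) with 1 cow left out. Between PF and TN cows it was 0, and 91 with DESeq2, 136 without the filter, 1 with at least 10 counts in every sample, 1 with the replicate block, and 0 to 14 (without TN replicate 2) with 1 cow left out.

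Of 216 log2 fold changes of the 9 ISGs under alternatives that kept all cows, 210 kept their direction, and 6 turned, all with the replicate number as a block. With this replicate block they were 0.084 (*ISG15*) and 0.025 (*RSAD2*) in HS against TN, -0.077 (*ISG15*) in HS against PF, and 0.17 (*ISG15*), 0.23 (*IFI6*) and 0.094 (*IFIT3*) in PF against TN cows. The median pairwise r was 0.72 with group and replicate means subtracted. The sources used here do not say whether the replicate numbers pair the cows, although the feed of PF cows was matched to that of HS cows. Cows with the same number deviated from their group means with correlations of -0.218 to 0.241, and cows with different numbers with -0.311 to 0.303. These values cannot show whether the cows were paired. The block changed no call of these genes.

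With 1 cow left out, 27 of 162 log2 fold changes turned. Between HS and TN cows the ranges were -1.13 to 1.21 (*ISG15*), -0.89 to 0.0041 (*MX1*), -0.17 to 1.15 (*MX2*), -0.33 to 0.38 (*RSAD2*), -0.42 to 1.73 (*IFI6*) and -0.92 to 0.14 (*IFI44*). Between HS and PF cows they were -0.65 to 0.46 (*ISG15*), -0.65 to 0.24 (*MX1*), -0.28 to 1.15 (*IFI6*) and -0.35 to 0.20 (*IRF7*). Between PF and TN cows they were -0.89 to 1.05 (*ISG15*), -0.83 to 0.36 (*MX1*), -1.22 to 0.070 (*MX2*), -0.86 to 1.32 (*IFI6*), -0.34 to 0.024 (*IFIT2*) and -0.43 to 0.45 (*IFIT3*), and for *CXCL10* -2.14 to 0.14. *UBE2L6* in HS against TN cows was called with DESeq2 and without the filter, and *CXCL10* in PF against TN cows without the filter.

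The correlations with *ISG15* kept their direction in 53 of 56 cases with other settings and in 72 of 72 with 1 cow left out. Without the 2 cows farthest from the median of *ISG15*, those of *MX2* (-0.035), *IFI44* (-0.39) and *IFIT2* (-0.23) turned, and the median pairwise r was 0.043.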
